A study of Mus with 12 samples.

Results

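The average effect of the low-progesterone day was described over both stages of mouse pregnancy that the study sampled, using 12 of its 12 libraries. Each library came from the whole uterus of 1 pregnant ICR mouse, an outbred laboratory stock, with an age of 8 weeks in the labels and 3 mice on each of 4 embryonic days. The implantation stage comprised E0.5, the day after mating, and E4.5, the time at which embryos attach. The labor stage comprised E15.5, in late pregnancy, and E18.5, shortly before birth. E0.5 and E18.5 were the days of low circulating progesterone in this design, and E4.5 and E15.5 the days of high progesterone. All mice were pregnant and untreated, no gene was altered, no group received hormone, and hormone levels are not part of the files. RNA was measured as FPKM, which scales fragments by transcript length and by library size, in 1 table per stage. For every pair of rows that held the same transcript, the differences E0.5 minus E4.5 and E18.5 minus E15.5 were taken on the log2(FPKM + 0.1) scale, and their mean is the average effect. A positive value means a higher level on the low-progesterone day, and fold changes on this scale are understated for genes of low level.

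Progesterone, acting through its receptor Pgr, keeps the myometrium quiet during pregnancy and prepares the endometrium for the embryo. Estrogen, acting through Esr1, drives the luminal and glandular epithelium to secrete and to build a protective surface when it is not opposed by progesterone. Before labor the mouse ovary withdraws progesterone, and prostaglandins, oxytocin signalling and immediate early transcription factors rise in the uterus. E0.5 and E18.5 lie at opposite ends of pregnancy, and the design treats both as days of low progesterone.

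The libraries were first compared with their labels. The uterine genes Acta2, the smooth muscle actin, and Esr1 were detected in all 12 libraries, with Acta2 between 112 and 1745 FPKM and Esr1 between 5.54 and 31.9 FPKM. Replicate 3 of E4.5 stood apart from the other libraries of its day. In it, the ovarian steroidogenic genes Star, Cyp11a1 and Hsd3b1 reached 238, 378 and 519 FPKM, whereas none of them exceeded 3.66 FPKM in the other 5 libraries of the implantation stage. The summed level of 19 rows of ovary markers was 1686 FPKM in that library and 12.1 to 16.7 FPKM in those 5, and its summed smooth muscle level was 418 FPKM against 1214 to 1735 FPKM. At the labor stage the ovary marker sum was 232 to 420 FPKM at E15.5 and 168 to 261 FPKM at E18.5. Yolk sac markers summed to 64.3 to 1273 FPKM at E15.5 and 279 to 1015 FPKM at E18.5, and the part of either tissue was not tested. Replicate 1 of E15.5 also differed from its group, with 4535 FPKM of summed NK and T cell markers against 1956 and 2568 FPKM, and 2406 FPKM of decidua markers against 873 and 1041 FPKM. For named genes whose call was lost without one of these libraries, a value without it is given. Trophoblast and placenta markers, of which 4 of 38 passed the filter, summed to 256 to 441 FPKM at E18.5 and 37.1 to 155.1 FPKM at E15.5, and to 15.4 to 31.5 FPKM at E0.5 and 2.67 to 4.24 FPKM at E4.5. The sum thus moved with the day, and the part of placental RNA in the results was not tested. In whole-organ RNA, fewer cells of a type and less RNA per cell cannot be told apart.

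**Figure D1:**
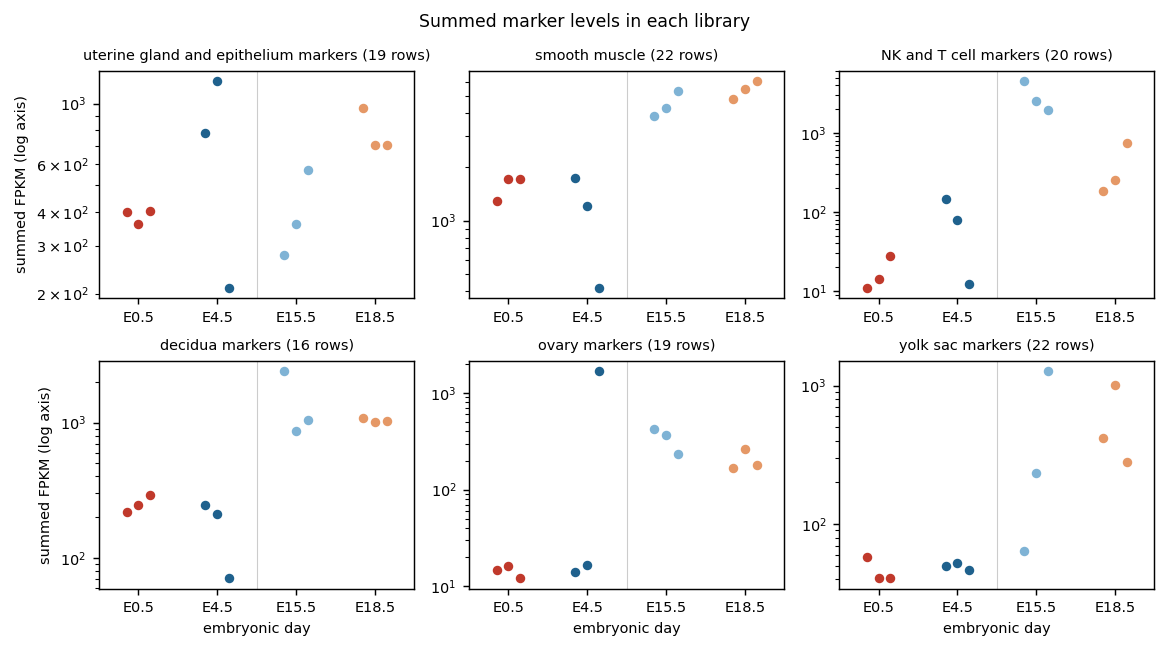
Summed FPKM (log axis) of 6 marker lists in each of the 12 libraries, one point per library, by embryonic day; the grey line separates the tables of the implantation and labor stages. Replicate 3 of E4.5, the rightmost point of its day, lies at 1686 FPKM for ovary markers and 418 FPKM for smooth muscle, and replicate 1 of E15.5 holds the highest NK and T cell sum, 4535 FPKM.

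The 2 low-progesterone days had a limited set of changes in common. Of 21394 pairs of rows tested, 822 were higher (3.84%) and 814 were lower (3.8%) on average at an adjusted p under 0.05 in limma. Of these 1636 pairs, 1453 moved in the same direction in both stages, but 922 had a labor-stage difference below 0.5 in size, and the implantation-stage difference was the larger in 1426. Pairs called shared passed the average test and also moved by at least 1 log2 unit the same way in each stage. There were 228 of them, 146 higher (0.682%) and 82 lower (0.383%), and in 116 of the higher and 47 of the lower pairs the 3 libraries of one day did not overlap those of the other in either stage. Over all tested pairs, 2.62% were higher and 1.79% lower without overlap in both stages, and 2.11% moved without overlap in opposite directions. The shares in this paragraph are the background for the counts of list members given below.

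The same question was asked with the rule of a size of at least 1 and an unadjusted p under 0.05 in each stage. This rule found 1388 higher (6.49%) and 1618 lower (7.56%) pairs at the implantation stage, and 409 higher (1.91%) and 397 lower (1.86%) pairs at the labor stage. Of the 409 pairs higher at E18.5, 135 were also higher at E0.5, or 33.0% of the labor-stage list and 9.73% of the implantation-stage list, while 33 were lower at E0.5. Of the 397 pairs lower at E18.5, 61 were also lower at E0.5, or 15.4% of the labor-stage list and 3.77% of the implantation-stage list, while 32 were higher. The pairs that met the rule the same way in both stages were 0.631% of those tested for higher and 0.285% for lower. With an adjusted p under 0.05 in each stage, 6 pairs remained, namely Alox12e, Fos, Tspan1 and Fxyd4 higher, and Mrgpra6 and Isyna1 lower. Across the 21394 pairs, which are not independent replicates, the effects of the 2 stages had a Spearman correlation of 0.172.

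**Figure D2:**
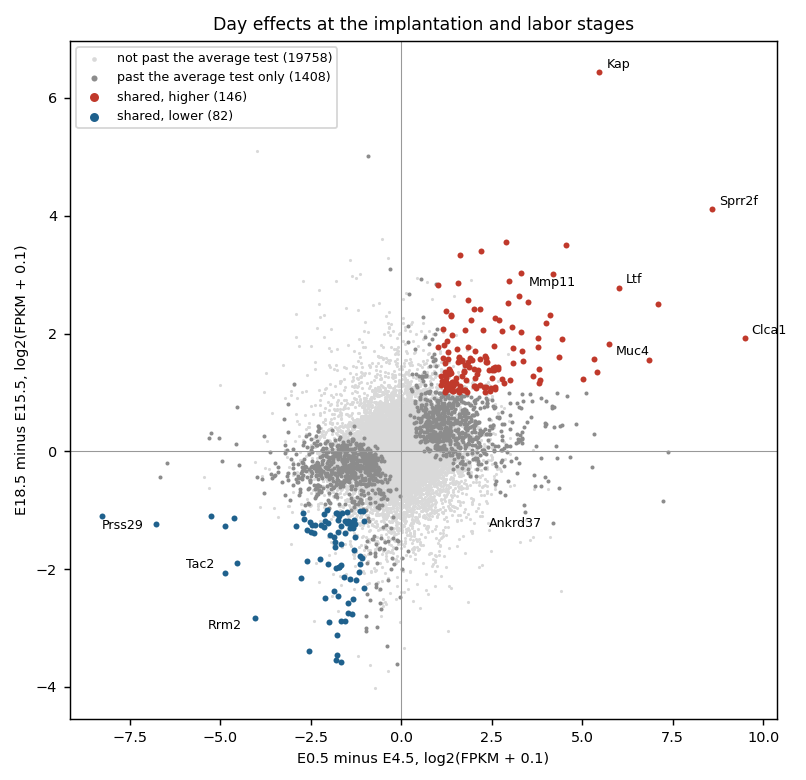
Difference E18.5 minus E15.5 (y axis) against E0.5 minus E4.5 (x axis), both on the log2(FPKM + 0.1) scale, for the 21394 pairs of rows tested, one point per pair. Red and blue points are the 146 higher and 82 lower shared pairs, which by their rule lie at least 1 unit from both axes; dark grey points, which passed the average test only, lie mostly along the x axis.

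Several of the higher genes of largest average effect encode proteins of the epithelial surface and its secretions. Sprr2f, a small proline-rich protein of the cornified envelope that estrogen induces in the uterus, was at 317, 656 and 774 FPKM at E0.5 and at 2.57, 2.11 and 0.37 FPKM at E4.5. At the labor stage it was at 61.2, 18.2 and 65.4 FPKM at E18.5 and at 1.14, 2.82 and 3.78 FPKM at E15.5. The days did not overlap in either stage, and the average effect was 6.36 (SE 0.50, adjusted p = 0.0002004). Another 2 Sprr rows were shared. Sprr2g lay at 9.52 to 20.5 FPKM at E0.5 and 2.2 to 4.98 FPKM at E18.5 and did not exceed 2.33 FPKM on the high-progesterone days (average effect 4.03, adjusted p = 0.007586). The row that merges Sprr2a1, Sprr2a2 and Sprr2a3, whose near-identical sequences can share reads, had an average effect of 4.80 (adjusted p = 0.003423), with overlapping days at the labor stage. The fourth tested Sprr row, Sprr1a, passed the average test with 5.32 for E0.5 and 0.30 for E18.5. Of the 16 Sprr genes listed, these 4 rows were tested.

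Ltf, the iron-binding antimicrobial protein lactoferrin, was at 537, 347 and 470 FPKM at E0.5 against 2.99, 5.15 and 20.0 FPKM at E4.5. At E18.5 it was at 247, 218 and 161 FPKM against 11, 38.2 and 64.5 FPKM at E15.5. Neither stage had an overlap, and the average effect was 4.39 (SE 0.49, adjusted p = 0.0009782). Ltf is also made by neutrophils. Of 7 neutrophil markers tested, Ltf was the one past the average test, 3 including it were higher and 2 lower at an unadjusted p under 0.05, where 10.6% and 12.4% of all tested pairs were, and 4 were higher at E0.5 by the unadjusted rule explained above. The summed level of the 15 listed rows other than Ltf was 3.07 to 7.92 FPKM at E0.5 against 2.31 to 3.6 FPKM at E4.5, and 13.8 to 21.3 FPKM at E18.5 against 43.4 to 63.9 FPKM at E15.5. S100a8, a defining marker, was at 0 to 0.478 FPKM at E0.5 and 0 to 1.08 FPKM at E18.5. The part of neutrophils in the change of Ltf was not tested.

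Of 7 mucins tested, 3 were higher on average, 1 was lower and 3 did not pass. Muc4, a membrane mucin, was at 17.7, 18.9 and 31.2 FPKM at E0.5 against 0.429, 0.567 and 0.0967 FPKM at E4.5, and at 7.68, 3.53 and 5.09 FPKM at E18.5 against 0.664, 1.45 and 2.74 FPKM at E15.5. Muc1, the membrane mucin that covers the luminal surface and is cleared for attachment, lay at 45.8 to 79.8 FPKM at E0.5 and 13.4 to 24.2 FPKM at E18.5, against 1.24 to 4.45 FPKM at E4.5 and 2.1 to 10.8 FPKM at E15.5. The average effects were 3.78 for Muc4 (adjusted p = 0.0006461) and 3.18 for Muc1 (adjusted p = 0.00198), and no day overlapped its counterpart. Muc4 and Muc1 were the shared mucins. The row that merges Fcgbp, which encodes a protein bound to mucins in mucus, with 9530053A07Rik had an average effect of 4.19 (adjusted p = 0.000316), and Clca1, a secreted metalloprotease of mucus, one of 5.71 (adjusted p = 0.0007718). Clca1 was at 178, 319 and 516 FPKM at E0.5 and at no more than 2.68 FPKM at E18.5, where it overlapped E15.5. The labor-stage difference of the Fcgbp row was 0.80 without replicate 1 of E15.5, and the row was then not shared.

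Ltf, Muc4, Muc1 and Clca1 belong to a list of 20 estrogen-induced epithelial genes, all of which were tested and which holds no Sprr gene. In it 8 were higher and 3 were lower on average, with a median average effect of 0.74 against -0.05 over all tested pairs, and Clca1, Ltf, Muc4, Muc1 and Padi1 were shared. The 3 lower members were Mki67, Mcm2 and Igf1, of which Mki67 and Mcm2 mark dividing cells and Igf1 is a growth factor. The other 3 higher members moved mainly between E0.5 and E4.5. Lcn2, an antimicrobial lipocalin, was 7.36 higher at E0.5 and -0.02 at E18.5. C3, the central complement component, was at 578 to 707 FPKM at E0.5 against 35.6 to 46 FPKM at E4.5 and overlapped between the later days, and Clca3b was 4.65 and -0.10. By the unadjusted rule, 11 members were higher and 5 lower at the implantation stage, and 7 were higher and 1 lower at the labor stage.

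**Figure D3:**
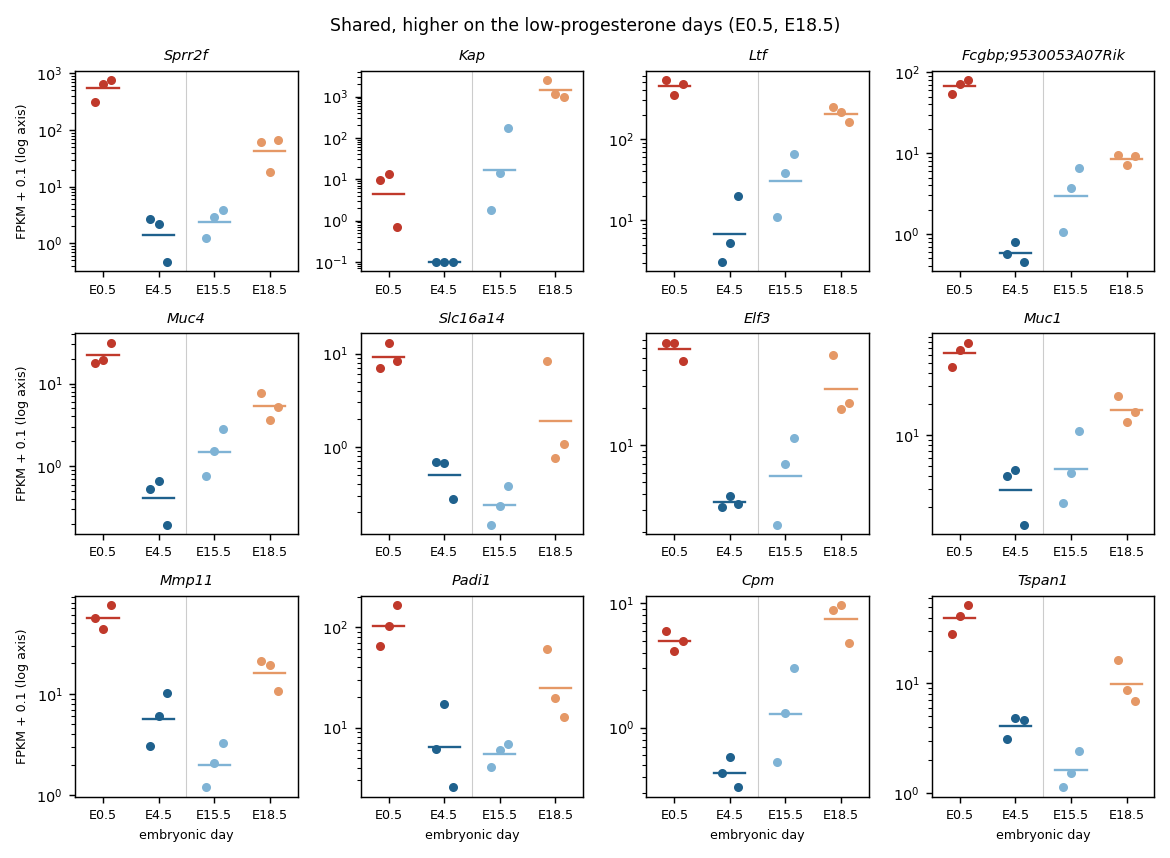
FPKM + 0.1 (log axis) in each library for the 12 protein-coding rows with the largest average effect among shared rows that reached 1 FPKM in both stages without overlap of days; points are libraries and bars are means of the log values (n = 3 per day). In every panel the E0.5 points lie above the E4.5 points and the E18.5 points above the E15.5 points, which the selection required.

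Some genes of epithelial identity and adhesion were also shared, with smaller effects than Sprr2f. Elf3, an epithelial transcription factor, was at 66, 66.7 and 47.5 FPKM at E0.5 against 3.08, 3.79 and 3.27 FPKM at E4.5, and at 52.5, 19.3 and 21.5 FPKM at E18.5 against 2.18, 6.87 and 11.3 FPKM at E15.5 (average effect 3.20, adjusted p = 0.001179). Of 37 keratin and junction genes tested, 10 were higher, 1 was lower and 26 did not pass on average, with a median of 0.84. Among all tested pairs 3.84% were higher and 3.8% lower. The shared members were Krt19 (1.97), Dsp (1.93), Krt8 (1.76) and Cdh1 (1.10). Krt8 and Krt19 are the intermediate filament proteins of simple epithelia, Dsp anchors them to desmosomes, and Cdh1 is the epithelial cadherin. Krt8 was at 53.9 to 75.6 FPKM at E0.5 against 14.3 to 22.1 FPKM at E4.5, and at 225 to 297 FPKM at E18.5 against 51 to 133 FPKM at E15.5. The lower member was Dsc2, a desmosomal cadherin, with 0.19 and -1.69 in the 2 stages, and it passed in 2 of the 12 fits that left out 1 library (adjusted p = 0.071 without replicate 1 of E15.5). The shared call was kept in 4 of those fits for Cdh1 and in 11 for Dsp. Without replicate 1 of E15.5 their labor-stage differences were 0.55 and 0.90, and without replicate 3 of E4.5 the implantation-stage difference of Cdh1 was 0.84.

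Of 18 uterine gland and epithelium markers tested, 5 were higher on average, Elf3, Krt8, Krt19 and Cdh1 among them, and 2 were lower, Prss28 and Prss29, with all 7 called shared and a median of 0.59. The other 11 did not pass. Among these the average effect was 0.83 for the adhesion protein Epcam (adjusted p = 0.07512), 0.68 for the keratin Krt18 (0.1099), 0.72 for the splicing factor Esrp1 (0.1051), 0.49 for the claudin Cldn3 (0.3717) and -0.03 for the transcription factor Ehf (0.9725). The summed level of 19 rows of uterine gland and epithelium markers was 361 to 403 FPKM at E0.5 against 210 to 1211 FPKM at E4.5, where Prss28 and Prss29 are among the markers summed, and 702 to 967 FPKM at E18.5 against 278 to 568 FPKM at E15.5. In replicate 1 of E15.5 it was the lowest of the labor stage, 278 FPKM. The part of epithelial content in the higher genes was not tested.

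The remaining higher genes of largest effect had different roles. Mmp11, the metalloproteinase stromelysin 3, was at 56.1, 43.4 and 75.1 FPKM at E0.5 against 2.94, 5.91 and 10.2 FPKM at E4.5, and at 20.9, 19.2 and 10.5 FPKM at E18.5 against 1.09, 1.98 and 3.14 FPKM at E15.5. No library of a low-progesterone day overlapped one of the high-progesterone day of its stage, and the stage differences of 3.31 and 3.02 gave an average of 3.17 (SE 0.33, adjusted p = 0.0007718). Its row spans positions 75923222 to 75932475 of chromosome 10 (minus strand) in the deposited coordinates, which fit GRCm38, and held 6 annotated transcripts in both tables. One of them, ENSMUST00000133897, was assayed in the study as a noncoding transcript, with the primer pair printed here because a row-level FPKM cannot separate that transcript from the protein-coding ones:

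m-lncRNA-MMP11-F: cagtcgggctttctcacaca
m-lncRNA-MMP11-R: ccggacttgctcccttacaa

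Of 32 metalloproteinases and inhibitors tested, 6 were higher and 1 was lower on average, beside 3.84% and 3.8% of all tested pairs. Mmp11 was the shared one. Mmp14, a membrane-bound collagenase, was 1.76 at E0.5 and 0.39 at E18.5, and Mmp3 4.27 and 0.08.

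Kap, the kidney androgen-regulated protein, was at 9.38, 13.4 and 0.586 FPKM at E0.5 and was listed at 0 in the 3 libraries of E4.5, with 0 counts in each. At E18.5 it was at 2548, 1169 and 985 FPKM against 1.66, 14.4 and 172 FPKM at E15.5. Its average effect of 5.96 (adjusted p = 0.007191) depends on the constant added before the logarithm, and its level at the labor stage was far above that at the implantation stage in tables normalized separately. Padi1, an enzyme that converts arginine to citrulline in proteins, had an average effect of 3.09 (adjusted p = 0.00516), and Slc16a14, a member of the monocarboxylate transporter family, one of 3.60 (adjusted p = 0.004288). Cpm, a membrane carboxypeptidase, reached 3.02, and Tspan1, a tetraspanin, 2.95. Tspan1 was at 28.3 to 51.7 FPKM at E0.5 against 3.01 to 4.73 FPKM at E4.5, and at 6.76 to 16.3 FPKM at E18.5 against 1.02 to 2.33 FPKM at E15.5. The shared call of each of Padi1, Slc16a14, Cpm and Tspan1 was kept in all 12 fits that left out 1 library.

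The prostaglandin pathway list also holds enzymes of the lipoxygenase and leukotriene pathways. Of its 33 genes tested, 3 were shared, and of 24 immediate early factors 2 were, all of them higher. Ptgs2, the inducible cyclooxygenase, was at 11.6, 5.26 and 12.3 FPKM at E0.5 against 0.996, 0.936 and 0.151 FPKM at E4.5, and at 3.91, 5.89 and 3.56 FPKM at E18.5 against 3.39, 0.944 and 1.23 FPKM at E15.5. The average effect was 2.60 (SE 0.43, adjusted p = 0.006109), and the days did not overlap, although the gap at the labor stage was small. Ptgs1, the constitutive cyclooxygenase, had differences of 0.92 and 1.65 and passed the average test (1.28, adjusted p = 0.02751) without reaching the minimum at the implantation stage. Its average call was kept in 6 of the 12 fits that left out 1 library. A pair of lipoxygenases was shared. Alox12e was at 11.6 to 24 FPKM at E0.5 against 4.19 to 8.51 FPKM at E4.5, and at 0.401 to 0.967 FPKM at E18.5 against at most 0.0122 FPKM at E15.5 (2.21, adjusted p = 0.001112). Alox15 had an average effect of 1.25, with an adjusted p of 0.04892 that became 0.0688 without replicate 3 of E4.5 and 0.111 without replicate 1 of E15.5. Of the 33 genes of that list, 8 were higher and 1 was lower on average, with a median of 0.30. The higher ones include Alox12e, Alox15, Alox5ap and Ltc4s, which belong to the lipoxygenase and leukotriene pathways. The lower one was Ptger2, a receptor for prostaglandin E2 that relaxes the myometrium, with -2.32 and 0.17 in the 2 stages. Hpgd, which breaks prostaglandins down, had an average effect of 0.46 (adjusted p = 0.3827).

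Fos, a subunit of the AP-1 transcription factor, was at 9.09, 7.53 and 6.05 FPKM at E0.5 against 2.51, 1.66 and 1.91 FPKM at E4.5. It was at 18.4, 25.9 and 17.7 FPKM at E18.5 against 5.04, 6.15 and 6.56 FPKM at E15.5. The differences of 1.85 and 1.77 were nearly the same in the 2 stages, and the average effect was 1.81 (SE 0.15, adjusted p = 0.0002773). Atf3, a stress-induced factor of the same superfamily, had an average effect of 2.04 (adjusted p = 0.01731), and Jun, a partner of Fos, one of 0.65 with no overlap in either stage (adjusted p = 0.006339). Of 24 immediate early factors tested, 5 were higher and 0 were lower on average by limma, and 12 were higher and 1 lower at an unadjusted p under 0.05, against the 10.6% and 12.4% of all tested pairs. By the unadjusted rule within a stage, 6 were higher at E18.5, and 2 were higher and 2 lower at E0.5. Egr1 differed between the stages, with -0.50 at the implantation stage, where the days overlapped, and 1.78 at the labor stage, where they did not (adjusted p of the difference 0.03653).

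Genes linked to contraction moved in part. Of 20 contraction-associated genes tested, Ptgs1, Ptgs2, Fos, Jun and Edn1 were higher on average and Ednrb, an endothelin receptor, was lower, with a median of 0.34. Edn1, the vasoconstrictor and uterotonic peptide endothelin 1, was at 4.22 to 5.44 FPKM at E0.5 against 0.856 to 1.87 FPKM at E4.5, and at 3.24 to 5.11 FPKM at E18.5 against 1.52 to 2.54 FPKM at E15.5 (1.40, adjusted p = 0.003305). Its labor-stage difference was 0.86 without replicate 1 of E15.5, under the minimum for a shared call. Oxtr, the oxytocin receptor, was at 6.76, 5.52 and 3.89 FPKM at E18.5 against 1.5, 1.06 and 1.1 FPKM at E15.5, but overlapped between E0.5 and E4.5, and its average effect of 1.41 had an adjusted p of 0.0505. Without replicate 3 of E4.5 the value was 1.74 (adjusted p = 0.00493). Gja1, the gap junction protein connexin 43, had -2.51 and -0.04 in the 2 stages and did not pass (adjusted p = 0.1774).

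Smooth muscle structure, steroid receptors and general housekeeping genes had no call in the average test. For 22 smooth muscle genes, 17 steroid receptors and cofactors, 39 cytosolic ribosomal proteins and 36 oxidative phosphorylation genes, 0 passed at an adjusted p under 0.05 by limma. At an unadjusted p under 0.05 the numbers were 5 higher and 0 lower for smooth muscle, 1 lower for steroid receptors, 1 lower for ribosomal proteins and 6 lower for oxidative phosphorylation, where 10.6% of all tested pairs were higher and 12.4% lower. At the implantation stage 4 of the smooth muscle genes were higher by the unadjusted rule, with replicate 3 of E4.5 low for the whole list. Pgr had an average effect of -0.10 (adjusted p = 0.9168) and Esr1 one of 0.27 (adjusted p = 0.5402). At E4.5, Pgr was at 8.86, 9.52 and 1.31 FPKM, the last value again in replicate 3.

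**Figure D4:**
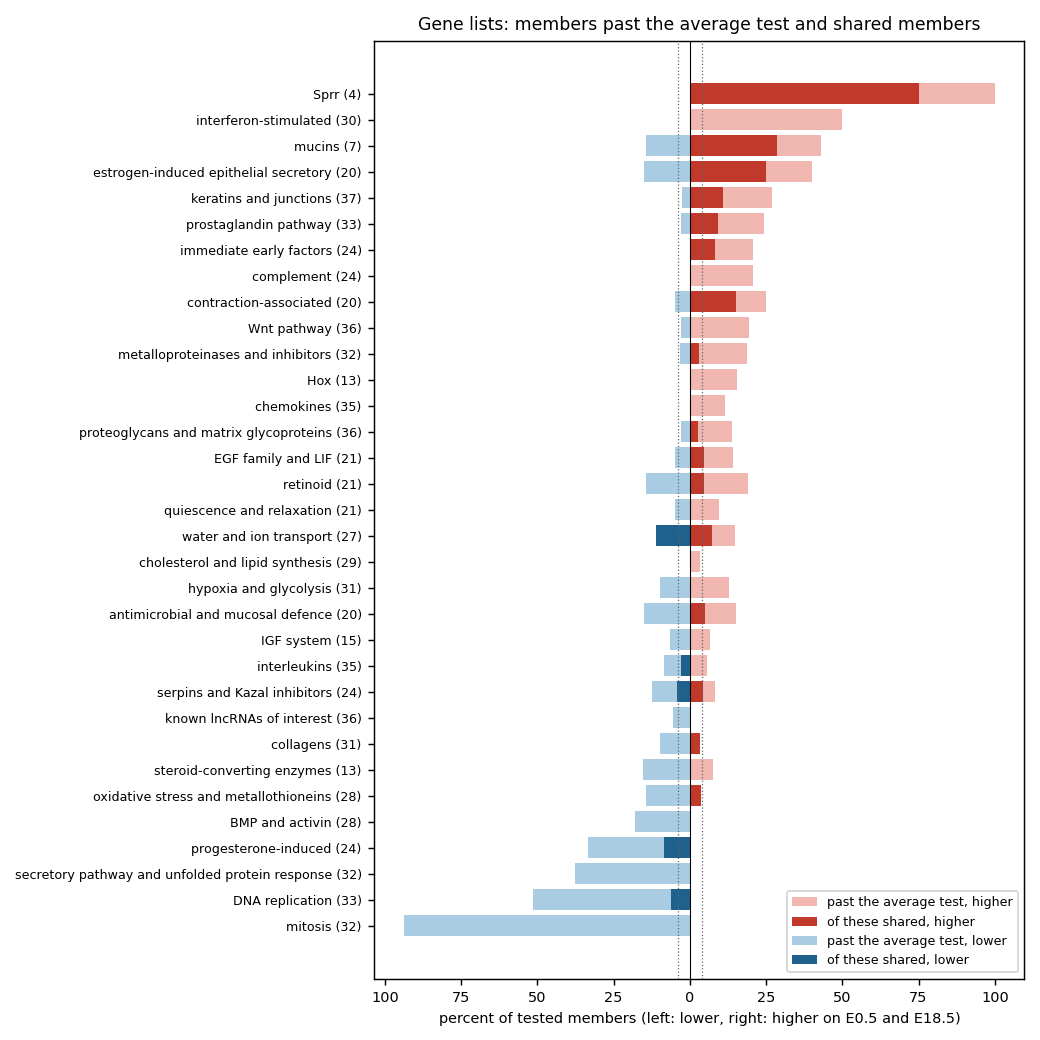
Percent of the tested members of each gene list (number tested in parentheses) that passed the average test, to the right for higher and to the left for lower, with the shared members in the dark part of each bar; dotted lines mark the 3.84% and 3.8% of all tested pairs. Lists with 0 members past the average test are left out. Dark parts are present for Sprr, mucin, estrogen-induced and keratin genes, and are absent from the long bars of mitosis and interferon-stimulated genes.

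Several of the genes called shared and lower depended on single libraries. In limma, the labor-stage differences of Prss29, Aqp8, Tac2, Slc13a2, Atp6v0d2, Coch and Procr had an unadjusted p between 0.0537 and 0.424. These genes, described below, did not meet the unadjusted rule at the labor stage, and neither did Lama1 (0.161) and BB365896 (0.0527). Their adjusted p is that of the average over both stages. The pair of neighbouring uterine gland serine proteases Prss28 and Prss29, also called implantation serine proteinases, had the largest falls. Prss28 was at 0.106, 0.0771 and 0.0615 FPKM at E0.5 against 147, 332 and 3.44 FPKM at E4.5, and overlapped between E18.5 and E15.5 (average effect -4.69, adjusted p = 0.01243). Prss29 was at 3.98, 0.804 and 0.241 FPKM at E0.5 against 446, 622 and 5.92 FPKM at E4.5, and at 9.99, 10.6 and 11 FPKM at E18.5 against 43.4, 11 and 31.7 FPKM at E15.5, so that the days of the labor stage were barely separate. Its average effect was -4.00 (SE 1.05, adjusted p = 0.04077). At E4.5 both were lowest in replicate 3. Without it the average effect of Prss29 was -5.08 (adjusted p = 0.000792), and without replicate 1 of E15.5 it was -3.80 (adjusted p = 0.0948). Prss28 then had a labor-stage difference of -0.65, so that neither was shared. The shared call of Prss29 was kept in 2 of the 12 fits that left out 1 library. The 2 genes were the shared members of 24 progesterone-induced genes tested, of which 0 were higher and 8 lower on average by limma, with a median of -0.88, and 2 were higher and 12 lower at an unadjusted p under 0.05, against the same background of 10.6% and 12.4%. That list moved at the implantation stage, with 15 members lower and 2 higher by the unadjusted rule, against 1 lower and 1 higher at the labor stage. Cyp26a1, which breaks down retinoic acid, had -6.65 and -0.43, Fst, an activin antagonist, -3.56 and -0.45, and Il13ra2, a decoy receptor of interleukin 13, -4.56 and 0.12. The average effect of Il13ra2 had an adjusted p of 0.0604 without replicate 1 of E15.5.

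Transport genes of the uterine lining changed in both directions. Aqp8, a water channel, was at 0, 0.0624 and 0.308 FPKM at E0.5 against 10.2, 16 and 0.868 FPKM at E4.5, and at 79.1, 108 and 105 FPKM at E18.5 against 278, 239 and 190 FPKM at E15.5 (average effect -3.06, adjusted p = 0.01298). Atp6v0d2, a subunit of the vacuolar proton pump, lay at 0.424 to 0.651 FPKM at E0.5 against 6.51 to 46.2 FPKM at E4.5, and at 14.1 to 20.1 FPKM at E18.5 against 29.4 to 47 FPKM at E15.5 (-3.17, adjusted p = 0.002027). Its labor-stage difference was -0.95 without replicate 1 of E15.5, just under the minimum for a shared call. Car4, a membrane carbonic anhydrase, had -1.89 (adjusted p = 0.03672), and its shared call was kept in 3 of the 12 fits that left out 1 library. Cftr, the chloride and bicarbonate channel that secretes uterine fluid, moved the other way. It was at 10.9, 7.42 and 5.85 FPKM at E0.5 against 0.37, 0.735 and 2.08 FPKM at E4.5, and at 11.7, 5.14 and 4.14 FPKM at E18.5 against 0.837, 1.46 and 2.14 FPKM at E15.5 (2.58, adjusted p = 0.004413). Fxyd4, a regulator of the sodium pump, rose by 1.82 (adjusted p = 0.001717). Of 27 water and ion transport genes tested, 4 were higher and 3 lower on average, beside 3.84% and 3.8% of all tested pairs. All 3 of the lower ones were shared, beside 0.383% of all tested pairs. Slc13a2, a sodium-dependent dicarboxylate transporter outside that list, had -2.09 (adjusted p = 0.02685), and its shared call was kept in 4 of the 12 fits.

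**Figure D5:**
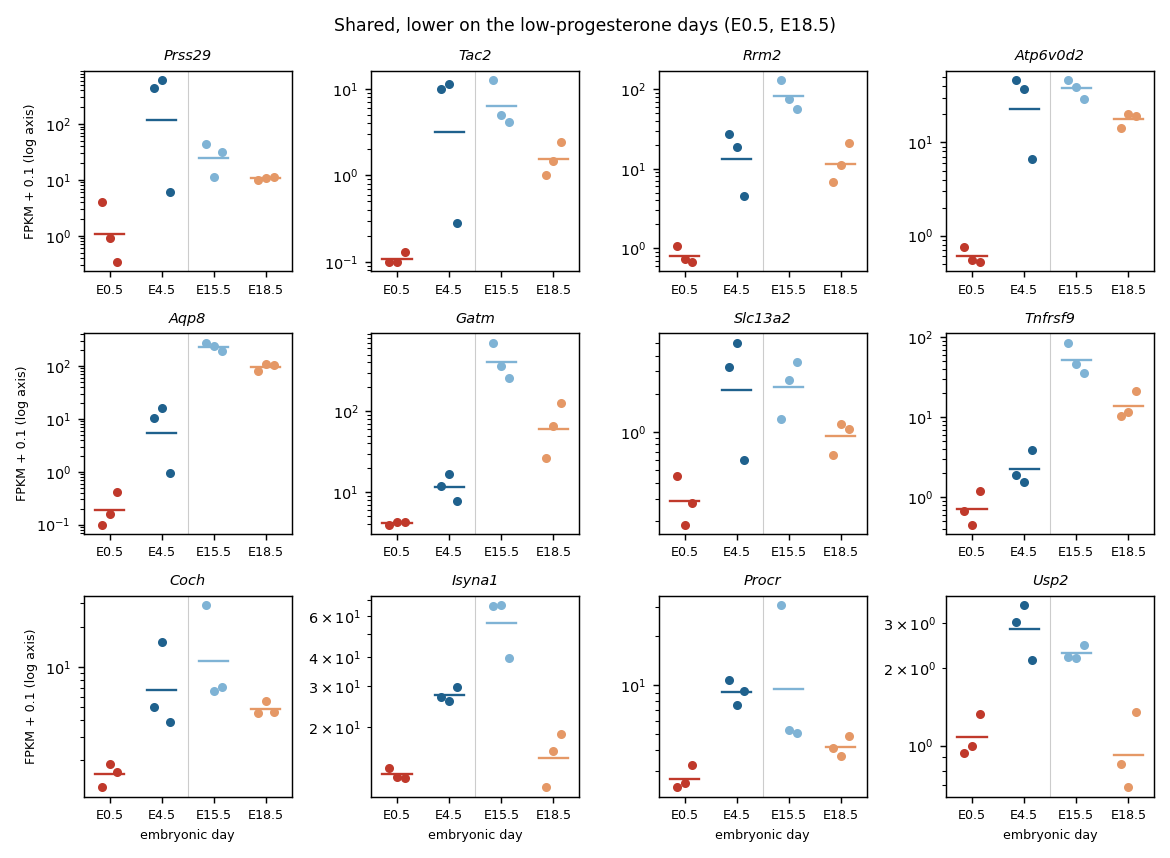
FPKM + 0.1 (log axis) in each library for the 12 protein-coding rows with the largest fall among shared rows that reached 1 FPKM in both stages without overlap of days; points are libraries and bars are means of the log values (n = 3 per day). Replicate 3 of E4.5, the rightmost point of its day, is the lowest of E4.5 for all but Tnfrsf9, Isyna1 and Procr.

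Other lower genes of large effect had different roles. Isyna1, which makes inositol phosphate from glucose 6-phosphate, was at 13.2, 12.1 and 12 FPKM at E0.5 against 26.9, 25.9 and 29.6 FPKM at E4.5. It averaged 15.02 FPKM ± 3.82 (SD, n = 3) at E18.5, with all 3 libraries below the values of 66, 66.5 and 39.7 FPKM at E15.5. Its average effect was -1.52 (SE 0.16, adjusted p = 0.0008274), and its shared call was kept in all 12 fits that left out 1 library. Gatm, the first enzyme of creatine synthesis, was at 3.86 to 4.22 FPKM at E0.5 against 7.59 to 16.7 FPKM at E4.5, and at 26.4 to 127 FPKM at E18.5 against 257 to 705 FPKM at E15.5 (-2.10, adjusted p = 0.008306). Usp2, a deubiquitinase, had -1.36 (adjusted p = 0.003235), and Tnfrsf9, a costimulatory receptor of lymphocytes, -1.79 (adjusted p = 0.01032). Tac2, which encodes neurokinin B, was at 0, 0 and 0.0305 FPKM at E0.5 against 9.92, 11.2 and 0.181 FPKM at E4.5 (-3.46, adjusted p = 0.02524). The shared calls of Tac2, of Coch, an extracellular matrix protein (-1.64), and of Procr, the endothelial protein C receptor (-1.46), were kept in 6, 5 and 3 of those 12 fits. Replicate 1 of E15.5 was the highest of its day for both of the last 2, with 28.8 FPKM of Coch against 6.48 and 6.93 FPKM, and 30.5 FPKM of Procr against at most 5.26 FPKM in the other 2. Without it neither was shared, as the labor-stage difference became -0.49 for Coch and -0.31 for Procr, with average effects of -1.29 (adjusted p = 0.0466) and -1.03 (adjusted p = 0.0042). Tac2 then had -3.21 (adjusted p = 0.0635).

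Among genes of proliferation, those of ribonucleotide reductase, which makes the building blocks of DNA, were lower on both days. Rrm2, its regulatory subunit, was at 0.967, 0.633 and 0.575 FPKM at E0.5 against 27.5, 18.8 and 4.42 FPKM at E4.5, and at 6.7, 10.9 and 20.8 FPKM at E18.5 against 131, 76.3 and 56.4 FPKM at E15.5. The average effect was -3.44 (SE 0.43, adjusted p = 0.001912). Rrm1, the catalytic subunit, had -1.11 (adjusted p = 0.01811). Its shared call was kept in 8 of the 12 fits that left out 1 library, and was lost without replicate 1 of E15.5, with -0.72 at the labor stage, and without replicate 3 of E4.5, with an implantation-stage difference just under 1 in size. They were the shared members of 33 DNA replication genes, of which 17 were lower on average. Mcm5, a subunit of the replicative helicase, was more typical of that list, with -2.46 between E0.5 and E4.5 and -0.02 between E18.5 and E15.5. Of 32 mitosis genes, 30 were lower on average with a median of -1.27, but 32 met the unadjusted rule between E0.5 and E4.5 and 0 between E18.5 and E15.5, where the median was -0.31, and none was shared. Top2a, which untangles chromosomes, was -2.85 and -0.43, and Cdk1, the mitotic kinase, -2.31 and -0.33.

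Further lists had members past the average test and none shared, and 3 of them are described first. Among the others were the Wnt pathway, with 7 higher and 1 lower of 36, and BMP and activin genes, with 5 lower of 28. Of 30 interferon-stimulated genes tested, 15 were higher on average, 18 met the unadjusted rule at E0.5 and 0 did at E18.5. Zbp1, a sensor of nucleic acids, was 4.06 and -0.50, and Mx1, an antiviral GTPase, 2.73 and -0.69. The average effect of Mx1 had an adjusted p of 0.077 without replicate 1 of E15.5. Of 32 genes of the secretory pathway and unfolded protein response, 12 were lower on average, and by the unadjusted rule 10 were lower at E0.5 and 0 at E18.5, with the chaperone Hspa5 at -2.10 and 0.14. Of 24 complement genes, 5 were higher on average, and 8 were higher and 1 lower by the unadjusted rule at the implantation stage, with 1 higher at the labor stage. Of 23 macrophage and antigen-presenting markers, 6 were higher on average, and 10 by the unadjusted rule at the implantation stage. Their sum was 142 to 162 FPKM at E0.5 against 71.2 to 97.8 FPKM at E4.5, and overlapped between the later days. The part of these cells in the complement genes was not tested.

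The calls for NK cell genes changed with the libraries used. Gzmc, a granzyme of uterine NK cells, was at 1.95, 1.25 and 2.32 FPKM at E0.5 against 17.6, 14.1 and 1.06 FPKM at E4.5. It was at 18.6, 24.9 and 83.2 FPKM at E18.5 against 762, 333 and 247 FPKM at E15.5 (average effect -2.68, adjusted p = 0.03061). Of 15 NK and T cell genes tested, 10 were lower at the labor stage and 2 at the implantation stage by the unadjusted rule, the median average effect was -1.43, and Gzmc was the one member past the average test, while 12 (80.0%) were lower at an unadjusted p under 0.05, where 12.4% of all tested pairs were. Without replicate 3 of E4.5, which held 12.4 FPKM of summed NK and T cell markers against 79.9 and 147 FPKM in the other 2 libraries of its day, 11 were lower on average and 8 were shared, where 6.07% and 0.65% of all tested pairs were in that fit. Gzmb then had -2.91 (adjusted p = 0.0104) and Prf1, the pore-forming perforin, -2.89 (adjusted p = 0.00981), whereas with all libraries they had -2.36 (adjusted p = 0.06234) and -2.24 (adjusted p = 0.09761). Without replicate 1 of E15.5, the library with the highest sum, 0 passed the average test. Cd4, a marker of helper T cells, had -0.07 (adjusted p = 0.9054).

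Smaller numbers of shared genes came from the matrix and signalling lists. Thbs2, a matricellular thrombospondin, was higher by 2.10 (adjusted p = 0.02181) and Col6a4, a collagen VI chain, by 1.18 (adjusted p = 0.03239). Rdh10, which makes retinaldehyde, rose by 1.34 and 1.36 in the 2 stages (average 1.35, adjusted p = 0.007861). The row of Nrg1, an EGF family ligand, merged with AC132407, rose by 2.52 (adjusted p = 0.001663), and Gsto1, a glutathione transferase, by 1.92 (adjusted p = 0.002165). Spink12, a Kazal-type protease inhibitor, was at 4.63 to 5.56 FPKM at E0.5 but at no more than 0.636 FPKM at E18.5 (3.38, adjusted p = 0.0002004). A2m, a circulating protease inhibitor, had -2.06 (adjusted p = 0.02625), and Cdh5, the endothelial cadherin, -1.33 (adjusted p = 0.005571). Cyp21a1, the steroid 21-hydroxylase of the adrenal, had 3.45 (adjusted p = 0.03396) and Peg10, an imprinted gene of placenta, 2.46 (adjusted p = 0.02251), both with overlapping days at the labor stage. The shared calls of Col6a4, A2m, Cyp21a1 and Peg10 were kept in 4, 6, 4 and 6 of the 12 fits that left out 1 library. Without replicate 1 of E15.5, the adjusted p was 0.0539 for Thbs2, 0.0764 for Col6a4 and 0.0528 for A2m, and the labor-stage differences of Cyp21a1 and Peg10 were 0.13 and 0.46.

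Of 2395 known lncRNA rows tested, 11 were higher (0.459%) and 9 lower (0.376%) as shared rows, beside 119 (0.855%) and 49 (0.352%) of 13911 protein-coding rows. At a mean of at least 1 FPKM in each stage and without overlap of days, 1 known lncRNA remained in each direction. Gm44744 was at 2.81, 3.45 and 4.32 FPKM at E0.5 against 0.0452, 0.115 and 0.0726 FPKM at E4.5, and at 2.66, 1.63 and 1.3 FPKM at E18.5 against 0.214, 0.468 and 1.23 FPKM at E15.5 (2.98, adjusted p = 0.0009289). BB365896 had -1.34 (adjusted p = 0.03643), and its shared call was kept in 4 of the 12 fits that left out 1 library, with an adjusted p of 0.0643 without replicate 1 of E15.5.

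Some of these lncRNAs lay beside a shared protein-coding gene that moved the same way. Within 100 kb this was so for 5 of the 11 higher lncRNAs (45.5%), where 2.25% of all tested known lncRNAs had a shared higher coding gene within that distance, and for 1 of the 9 lower ones (11.1%), where the figure was 1.21%. Gm44744 (chromosome 7, 28052769 to 28060133, plus strand) ended 10.9 kb before the Fcgbp row on the same strand. Plet1os overlapped Plet1, Gm15592 overlapped Cftr, Gm16401 overlapped Prom1 and BB365896 overlapped Fam13a, each on the opposite strand, and Gm14102 lay 12.8 kb from Fermt1. Gm15592 had stage differences of 1.92 and 2.23 and Cftr 3.06 and 2.11. The sources used here do not state whether reads were counted by strand, so reads of the 4 overlapping pairs cannot be told apart. Prom1 had an adjusted p of 0.101 without replicate 1 of E15.5 and Fam13a a labor-stage difference of -0.97, and neither was shared.

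The study also names individual genes, and noncoding transcripts called after the coding genes Ankrd37, Lama1, Rpl24 and Vps9d1. The values given here for those 4 are of the rows of the coding genes, matched by symbol, and the noncoding transcripts were not separated. Of 13 rows tested for a selection of genes that the study names, Mmp11 among them, 7 had the same sign in both stages and 6 opposite signs, and Mmp11 and Lama1 were shared. Ankrd37, a target of hypoxia signalling, was at 3.25, 2.87 and 3.17 FPKM at E0.5 against 0.552, 0.504 and 0.7 FPKM at E4.5, but at 1.21, 1.68 and 1.87 FPKM at E18.5 against 4.5, 3.15 and 2.9 FPKM at E15.5. It was therefore without overlap in both stages and in opposite directions, with 2.23 and -1.10 (adjusted p of the difference 0.0006532, where 2.7% of all tested pairs were called). Lama1, a laminin chain of basement membranes, had -4.62 and -1.13 (average -2.88, adjusted p = 0.0104), with overlapping days at the labor stage and 26.2 FPKM in replicate 3 of E4.5 against 3.28 and 3.47 FPKM. Without that library it had -2.39 (adjusted p = 0.00359), and without replicate 1 of E15.5 its labor-stage difference was -0.59 and it was not shared. Igf1 was lower at the implantation stage alone, -2.15 against -0.06. The rows of Rpl24, Snhg1, Mir99ahg, Vps9d1 and Foxp1, each merged with other genes except Vps9d1, had average effects between -0.19 and 0.16 with adjusted p of 0.515 or more. The row of Dnm3os with Mir199a-2 and Mir214 had 0.88 (adjusted p = 0.1653) without overlap in either stage, Gpx1 -0.85 (adjusted p = 0.3904) and Il1b 0.28 (adjusted p = 0.7545). The row of Hand2os1 and Gm17994 had -1.21 and 0.003 in the 2 stages (average -0.60, adjusted p = 0.5506). Without replicate 3 of E4.5 its implantation-stage difference was -2.38 and its average -1.19 (adjusted p = 0.0128), so the implantation stage carried that average.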

How the data were processed

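RNA-seq tables of whole mouse uterus were used, 1 per stage with 6 libraries each. The FPKM values were deposited by the authors, who trimmed reads with Cutadapt, aligned them, and assembled and quantified transcripts with StringTie and Ballgown. Tools in the submitters' processing notes are Bowtie 0.12.2, HISAT2 2.0 and StringTie 1.3.0, with builds mm8 and mm10. The labels name poly(A) selection and the study's methods ribosomal depletion. The implantation table also holds the authors' deposited count columns, 58020989 to 70906881 per library, and positions, which overlapped the GRCm38.p6 RefSeq position of the same symbol for 12579 of 12582 coding rows. Depth of the labor libraries is not known from FPKM, and 0 value columns were left out.

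Rows of the tables (87235 and 40787) were paired by shared transcript identifiers, each row once, giving 32720 pairs, of which 21394 had a mean of at least 0.1 FPKM in both tables. limma 3.58.1 (R 4.3.3, trend) was fitted to log2(FPKM + 0.1) with 4 group means over all 12 libraries, with Benjamini-Hochberg adjustment over all pairs. The difference between stages was tested in the same fit. The unadjusted rule is p under 0.05 and a size of at least 1 within a stage. The fit was tested on simulated data made from the rows' own means and spread. There, 89.5% of 200 rows changed by 2 log2 units in both stages passed the average test, as did 84.5% of 200 rows changed by 4 at the implantation stage alone, of which 3 were called shared. Of 20794 unchanged rows beside them 30 passed and 8 were called shared, and 0 of 21394 passed where no row was changed. The simulated noise was drawn separately for each row, so no simulated library departed from its group in many rows at once. The real libraries include such cases, so these rates cannot be carried over to the data. The mice are separate animals, so the spread between replicates is biological as well as technical.

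The members and the 56 gene lists were chosen with earlier results of these data known. Named genes were, per direction, the 12 protein-coding rows of largest average effect among shared rows without overlap and with at least 1 FPKM in each stage, likewise up to 5 known lncRNAs and up to 3 other rows, up to 4 shared members per list with up to 2 other examples, and 14 of the genes the study names, of which Il6 did not pass the filter. Other genes were named after their values were seen, as were the lncRNA neighbours within 100 kb. Alternatives were other filters, added constants (1 and 0.01), scalings (75th percentile, quantile, protein-coding sum), limma without trend, robust or with sample weights, other pairing of rows, a block for the replicate number, each library left out, and edgeR 4.0.16 on the implantation counts. Primer sequences were read from the study's primer table. Figures were drawn with matplotlib 3.10.9. One result is not reported here.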

Additional observations from a re-analysis of the deposited data

Results flagged for a closer look

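The effects of the 2 stages differed in 25 of the genes named in the text, in a test of the difference itself (limma, adjusted p under 0.05). Among all tested pairs 2.7% passed that test. Some genes were named after their values were seen, so the count of 25 cannot be compared with this share. Differences are given as implantation minus labor on the log2 scale, with the adjusted p in parentheses.

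Among genes that were shared and higher, the effect was larger at the implantation stage for Clca1 by 7.56 (0.009535), the Fcgbp row by 5.30 (0.006217), Sprr2f by 4.48 (0.04172), Spink12 by 4.05 (0.005482) and Muc4 by 3.92 (0.02444). Atp6v0d2, which was shared and lower, differed by -4.14 (0.02531).

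Genes with a positive effect at the implantation stage and an effect between -0.69 and 0.46 at the labor stage differed by 7.38 for Lcn2 (9.886e-05), 4.75 for Clca3b (0.006627), 4.56 for Zbp1 (0.0007705), 4.19 for Mmp3 (0.02686), 3.55 for C3 (0.03322) and 3.42 for Mx1 (0.007744). Genes with a negative effect at the implantation stage and an effect between -0.45 and 0.17 at the labor stage differed by -6.21 for Cyp26a1 (0.01039), -4.68 for Il13ra2 (0.03803), -3.11 for Fst (0.006575), -2.49 for Ptger2 (0.01571), -2.44 for Mcm5 (0.006217), -2.43 for the Top2a row (0.02719), -2.24 for Hspa5 (0.02423), -2.09 for Igf1 (0.03017), -1.98 for Cdk1 (0.02635) and -1.66 for Mcm2 (0.009416).

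Ankrd37 had an implantation effect of 2.23 and a labor effect of -1.10, and differed by 3.33 (0.0006532). Egr1, with an effect of 1.78 at the labor stage, differed by -2.28 (0.03653), and Dsc2, with one of -1.69, by 1.88 (0.03062). The rule for outlying libraries, which needs at least 4 per group, was not applied to these groups of 3.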

How the results depend on the processing

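The count of pairs past the average test was 1636 and moved to 3012 with sample weights, while leaving out 1 library gave 807 to 2570. The shared count of 228 moved to 120 at a mean of at least 1 FPKM, 73 with 1 added, 648 with a minimum of 0.5 in each stage and 1453 with the sign alone, and to 117 to 307 with 1 library left out. The both-stage count of 196 moved to 99 at a mean of at least 1 FPKM, 61 with 1 added, 6 with an adjusted p in each stage and 493 with no minimum size, and to 128 to 267 with 1 library left out. The count of pairs with a difference between stages, 577, moved to 2040 with sample weights and to 187 to 1265 with 1 library left out. The estimated weights were 0.203 for replicate 3 of E4.5 and 0.388 for replicate 1 of E15.5, against 0.77 to 2.756 for the other 10 libraries. With a block for the replicate number the 4 counts were 613, 112, 184 and 69. Same-numbered libraries of a stage had correlations of -0.091 to 0.019, so the numbers do not pair the samples. No filter, 0.01 added, the scalings, other pairings of rows and limma without trend or robust kept all 4 counts within 1.5 times, as did edgeR at the implantation stage and fits of each stage alone for the both-stage count, and the causes of the moves were not tested.

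Without replicate 3 of E4.5 the average, shared and both-stage counts were 2570, 307 and 267, and 204 of the 228 shared pairs were kept. The average count was 807 without replicate 1 of E18.5, 946 without replicate 2 of E18.5 and 1031 without replicate 2 of E15.5. The shared count was 117 and the both-stage count 128 without replicate 1 of E18.5, and the shared count 135 without replicate 1 of E15.5. The difference count was 1265 without replicate 3 of E4.5 and, without replicates 1 and 2 of E0.5, 1 of E4.5, 2 and 3 of E15.5 and 1, 2 and 3 of E18.5 in turn, 333, 313, 376, 198, 354, 261, 187 and 288. In all 12 of these fits 724 pairs passed the average test and 76 were shared. The labor tables give no counts, so depth sets no limit there that could be computed. Higher pairs were 64.0% of the shared ones, and 77.5%, 80.8%, 49.8% and 74.1% at 1 FPKM, with 1 added, with weights and with the block. Of 59 named rows past the average test, 0 changed sign under these settings, but 18 no longer passed with the block, 17 without replicate 1 of E18.5 and 16 without replicate 2 of E18.5.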

Other observations

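Among shared protein-coding genes not described above, several encode surface and adhesion proteins of epithelia. These genes were chosen after their values were seen. Cd24a, a surface sialoglycoprotein, was at 261 to 318 FPKM at E0.5 against 22.9 to 42.6 FPKM at E4.5, and at 272 to 573 FPKM at E18.5 against 79.9 to 211 FPKM at E15.5, with an average effect of 2.29 (adjusted p = 0.001663). Ceacam1, a cell adhesion molecule, had 2.16 (adjusted p = 0.008981), Itgb6, an epithelial integrin subunit, 1.82 (adjusted p = 0.004641) and Evpl, a protein of the cornified envelope, 1.40 (adjusted p = 0.004667). No day overlapped its counterpart in any of these 4 genes. Without replicate 1 of E15.5 the labor-stage difference of Itgb6 was 0.75, and it was not shared.

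A further 4 shared lower genes, also chosen after their values were seen, are Klrg1, Xcl1, Fasl and Runx3. Klrg1, an inhibitory receptor of NK cells, was at 9.3 to 36.9 FPKM at E15.5 and 0.762 to 2.22 FPKM at E18.5 (average effect -2.62, adjusted p = 0.02309). Xcl1, a chemokine of NK cells, had -2.02 (adjusted p = 0.02322), Fasl, the death ligand, -1.92 (adjusted p = 0.03102) and Runx3, a transcription factor of cytotoxic cells, -1.45 (adjusted p = 0.01353). Runx3 was the one of the 4 without overlap in both stages. Their shared calls were kept in 10, 6, 4 and 11 of the 12 fits that left out 1 library. Without replicate 1 of E15.5, the library with the highest sum of NK and T cell markers, the adjusted p was 0.0567 for Klrg1, 0.0594 for Xcl1, 0.0701 for Fasl and 0.0367 for Runx3. Of the 15 NK and T cell genes tested as a list, 1 was lower in the average test, 0 were without that library, and 11 were without replicate 3 of E4.5.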
